A study of Homo sapiens with 6 samples.

Results

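The MAP kinase cascade was followed through the RNA that came down with Staufen1 (Stau1), a double-stranded RNA-binding protein that takes part in the transport, translation and decay of mRNAs. Its members were chosen by symbol alone: every target whose symbol starts with MAPK, MAP2K, MAP3K, MAP4K or MAPKAPK, or is DUSP followed by a digit. This gave 77 of the 37879 targets of the array, namely 13 MAP kinases, 7 MAP2Ks, 15 MAP3Ks, 5 MAP4Ks, 3 MAPKAPKs, 9 scaffolds and adaptors, 10 classical MAP kinase phosphatases and 15 other DUSPs. No measured value entered this rule, although the set was chosen with earlier results of these data known. The name of the set fits its kinases and phosphatases, but the symbol rule also took in members that are not steps of the cascade. Among them are MAPKAP1, a subunit of the mTORC2 complex, and DUSP11, an RNA phosphatase.

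All 6 samples were HEK293T cells, an established human embryonic kidney line, arrested in prometaphase by nocodazole (50 ng/ml over 15 h by the sample labels, while the study's methods give a longer time), which blocks microtubule polymerization. For the 3 Stau1 IPs the cells had been transiently transfected with a plasmid that expressed Stau155-FLAG from the RSV promoter, and for the 3 control IPs with the empty vector. The same anti-FLAG antibody was used in both groups, so a Stau1 IP was read against RNA that bound the beads without the tagged protein. The tagged protein was expressed in addition to the cells' own Stau1, and the study reported its level as below that of the endogenous protein. Nothing in the labels says whether the replicates came from separate cultures, so p-values measure only the spread between these samples. How much of a transcript the cells held, how many cells gave RNA and how much of it came down cannot be told apart in IP samples, and total RNA was not analysed here.

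In a MAP kinase cascade, a signal at the membrane or a stress activates a MAP3K, often through a MAP4K, the MAP3K phosphorylates a MAP2K, and the MAP2K phosphorylates a MAP kinase on a threonine and a tyrosine. The ERK branch answers mainly to growth factors, and the JNK and p38 branches mainly to stress and cytokines. Scaffold proteins hold the layers of a branch together, MAPKAP kinases carry the signal further, and dual-specificity phosphatases (DUSPs) take both phosphates off the MAP kinase again. Several of the DUSP mRNAs are known as short-lived, immediate early transcripts.

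Each array gave a signal per target (an intensity), its standard error between beads and a detection p-value, and a target was taken as detected where that p-value was under 0.05. Of the members, 48 were detected on all 6 arrays, 15 on 1 to 5 arrays and 14 on none, and 57 were detected on at least 3. Per array, 51 to 61 members and 11635 to 13054 targets of the whole array were detected. Among the MAP kinases, MAPK8 and MAPK10 of the JNK group and MAPK11 of the p38 group were detected on no array. Neither were the MAP3Ks MAP3K8, MAP3K12 and MAP3K13, the ERK phosphatases DUSP4 and DUSP6, MAPK8IP3, MAPKBP1, DUSP13, DUSP15, DUSP21 and DUSP5P. A bright target could miss detection: MAP2K5 had signals of 438 to 729 and counted as detected on 2 arrays. The genes that mark the cells, VIM, NEFM, KRT8 and KRT18, and the mitotic genes CCNB1, PLK1, AURKA and CDC20 were detected on every array. Of 5 genes of other cell types, ALB, CD34, PTPRC and UMOD were detected on none, and COL1A1 was detected on 5 arrays, with signals of 104 to 152. STAU1 itself had signals of 2499, 3246 and 2758 in control IPs 1 to 3 and of 2845, 1857 and 3130 in Stau1 IPs 1 to 3, so the array labelled Stau1 IP 2 was the lowest.

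The arrays labelled control IP 2 and Stau1 IP 2 each had their highest correlation with an array of the other group, also within the cascade. Over the 48 members detected on every array, normalized log2 levels correlated at r = 0.995 between Stau1 IP 1 and Stau1 IP 3, with a median absolute difference of 0.08. Against Stau1 IP 2, the same pair of arrays correlated at r = 0.930 and r = 0.936, with median differences of 0.25 and 0.24. Control IP 2 correlated at r = 0.979 and r = 0.982 with Stau1 IP 1 and 3. With control IP 1 and 3 it correlated at r = 0.961 and r = 0.973. Stau1 IP 2 had its highest correlation, r = 0.961, with control IP 3. The median absolute differences did not set these arrays apart in the same way. Control IP 2 was nearest to control IP 3, at 0.137, against 0.140 for Stau1 IP 3. Stau1 IP 2 lay 0.238 from control IP 3 and 0.237 from Stau1 IP 3. The correlations are across genes, which share an array and are not independent replicates. The labels were kept for the tests that follow. Values for the arrays numbered 2 are given singly, and results are also given without both of them and with their groups exchanged. Both follow from how similar the arrays are, and leaving out arrays that lie far from their group narrows its spread by construction, so the p-values of either are not independent of that choice.

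Compared by the labels, the question being which transcripts were enriched in Stau1 complexes, no member passed the threshold of the study's methods, a fold above 2.5 with an unadjusted p under 0.05. Over the whole array, 1 target was enriched by this rule (0.00264%) and 0 were depleted (0%). The study reported many more transcripts enriched at this fold in its own analysis of these IPs. The labelled comparison here did not reproduce that number, and whether the study's set holds any member is not given here. No member had an adjusted p under 0.05 in limma either, against 0.00264% of all targets. At an unadjusted p under 0.05, 10 of the 77 members were higher in the Stau1 IPs (3.89% of all targets) and 6 were lower (5.03%). The higher ones included MAPK8IP3, which counted as detected on no array, with signals of 114 to 176. Most targets of the array lay near background, and the comparison is closer among targets detected on at least 3 arrays. There, 9 of 57 members were higher (8.8% of all such targets) and 6 were lower (11.4%), by the fit over all targets. With limma fitted to the detected targets alone, 7 members were higher and 4 lower. The share of all such targets is not given for that fit. The 3 Stau1 IPs lay above all 3 control IPs in 8 of the 57 (9.17%) and below them in 9 (12.7%). The median log2 fold change was 0.00 over the 77 members and 0.00 over all targets. The median range over the 6 arrays was 0.43 on the log2 scale for the 57 members and 0.55 for all targets detected on at least 3 arrays.

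**Figure D1:**
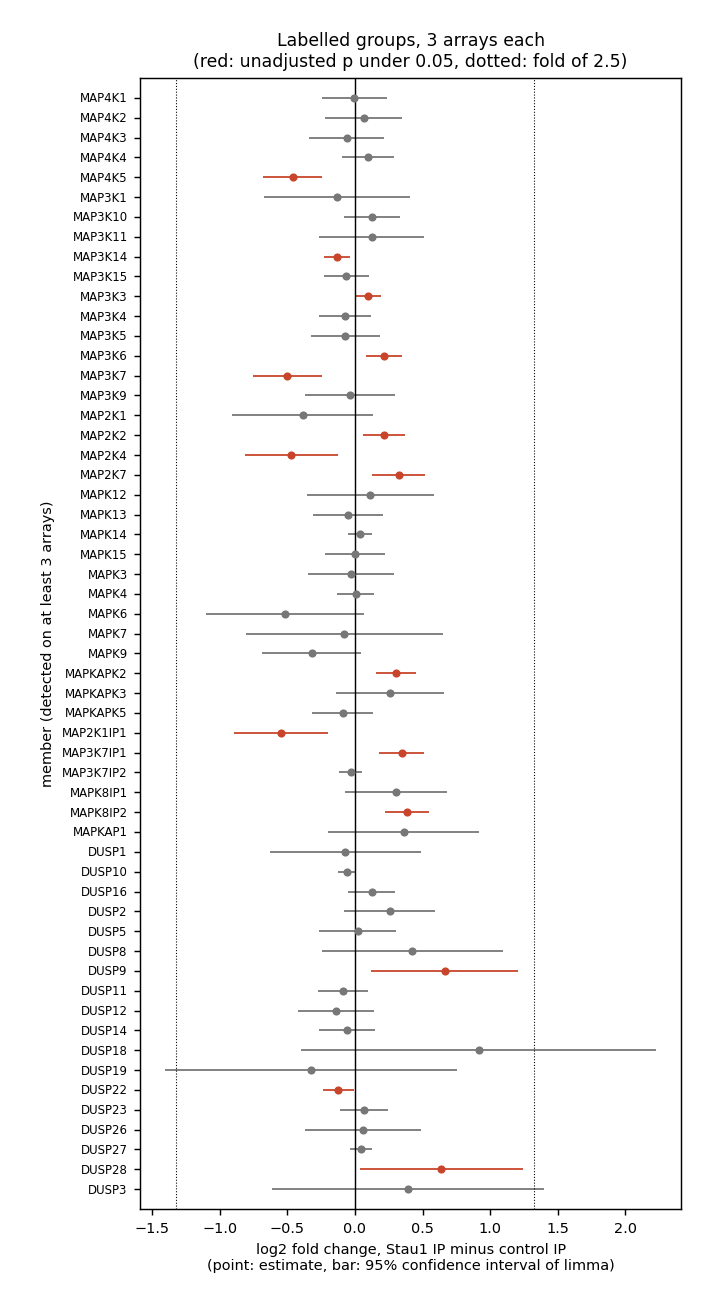
Log2 fold change of 56 of the 57 members detected on at least 3 arrays, Stau1 IP minus control IP with 3 arrays each as labelled, ordered by their place in the cascade. Points are limma's estimates and bars their 95% confidence intervals, red where the unadjusted p was under 0.05 (9 higher, 6 lower). No estimate reached the dotted lines at a fold of 2.5, and the widest intervals belong to DUSP18 and DUSP19.

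Log2 values here are background-subtracted, variance-stabilized and spline-normalized, and on this scale a change of a dim target is understated. The log2 fold changes, standard errors (SE) and p-values come from limma, with adjustment by the Benjamini-Hochberg method over all 37879 targets. An exact permutation test of 3 arrays against 3 cannot give a p below 0.1, which is what it gave for each member whose groups did not overlap.

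No transcript of a MAP kinase proper had an unadjusted p under 0.05. MAPK3 (ERK1), an end kinase of the growth factor branch, had signals of 3311, 4173 and 3523 in control IPs 1 to 3 and of 3226, 4342 and 3478 in Stau1 IPs 1 to 3, and a log2 fold change of -0.03 (SE 0.13). MAPK14, the main p38 kinase, was dim, at 91.6 to 115, and its interval ran from -0.05 to 0.12. MAPK12, MAPK13, MAPK4 and MAPK15 had log2 fold changes between -0.05 and 0.11. For all of these the arrays of both groups overlapped.

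The MAP kinases with the widest spread were MAPK6 and MAPK7. MAPK6 (ERK3), an atypical MAP kinase whose protein turns over quickly, had signals of 583, 656 and 498 in the control IPs. In the Stau1 IPs its signals were 499.6, 210.0 and 542, so that Stau1 IP 2 alone was far below the others. After normalization its 3 Stau1 values lay below its 3 control values, with a log2 fold change of -0.52 (SE 0.23, adjusted p = 0.623 in limma). Without both arrays numbered 2 it was -0.26 (adjusted p = 0.325), and with them exchanged it turned to 0.17 (adjusted p = 0.891). MAPK7 (ERK5), the end kinase of a separate branch driven by MAP2K5, showed the opposite picture, with signals of 451, 388 and 499.5 against 319.5, 559 and 421. Stau1 IP 2 was here the highest array, and the labelled groups overlapped with a log2 fold change of -0.08 (SE 0.29). With the arrays numbered 2 exchanged it was -0.64 (SE 0.11, adjusted p = 0.0755), and without them -0.54 (adjusted p = 0.0638). MAPK9 (JNK2) had signals of 981, 899 and 744 against 754, 489.6 and 862 and a log2 fold change of -0.32 (SE 0.15, adjusted p = 0.629), again with Stau1 IP 2 lowest, and it was -0.05 with the exchange.

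In the MAP2K layer, the kinases of the stress branches lay on both sides of 0, none past the adjusted threshold. MAP2K4, which phosphorylates JNK and p38 kinases, had signals of 631, 675 and 539 in the control IPs and of 499, 277 and 545 in the Stau1 IPs. Its log2 fold change was -0.47 (SE 0.14, adjusted p = 0.396 in limma), and it moved to -0.01 with the arrays numbered 2 exchanged. MAP2K7, which acts on JNK kinases only, had signals of 315, 415.5 and 381 against 483.5, 445 and 518. It was higher on each Stau1 array than on each control array, by 0.32 (SE 0.08, adjusted p = 0.313 in limma). With the exchange it was -0.01, and without both arrays numbered 2 it was 0.24 (adjusted p = 0.192).

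Of the ERK-directed pair, MAP2K2 had a log2 fold change of 0.21 (SE 0.06, adjusted p = 0.404 in limma), with signals of 3937, 5106 and 4527 against 5126, 5098 and 5606. MAP2K1 had signals of 1344, 1487 and 1069.7 against 1211, 598 and 1248, so that its fold change of -0.39 (SE 0.21, adjusted p = 0.705) came with a single low array, Stau1 IP 2, and turned to 0.19 (SE 0.25) with the exchange. MAP2K3, an activator of p38 kinases, was detected on 0 control arrays and 2 Stau1 arrays, although its signals of 203 to 226 and of 182 to 222 overlapped. MAP2K5, upstream of MAPK7, had 621, 604 and 541 against 438, 729 and 548, with Stau1 IP 2 highest, as for MAPK7. MAP2K6 was dim, detected on 2 arrays and lowest on control IP 3, at 77.2.

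Upstream of these, MAP3K7 and MAP4K5 were lower in the Stau1 IPs at an unadjusted p under 0.05. MAP3K7 (TAK1), a MAP3K of the stress branches and of NF-kappaB signalling, had signals of 642, 684 and 587 in the control IPs and of 512, 302 and 509 in the Stau1 IPs. All 3 Stau1 arrays lay below all controls, with Stau1 IP 2 lowest by far. The log2 fold change was -0.50 (SE 0.10, adjusted p = 0.249 in limma), it was -0.45 (adjusted p = 0.0778) without both arrays numbered 2, and it was -0.10 with them exchanged. MAP4K5, a germinal centre kinase-related kinase upstream of JNK signalling, had signals of 205, 222 and 194 against 148, 122 and 171. Its groups did not overlap in deposited signal or after normalization. The log2 fold change was -0.46 (SE 0.09, adjusted p = 0.229 in limma), and -0.42 (SE 0.06, adjusted p = 0.0406) without both arrays numbered 2. With them exchanged it was -0.10 (SE 0.21, adjusted p = 0.909). The size for this dim target depended on the scale: the labelled value was -0.065 with neqc, limma's own background correction for such arrays, and -0.96 with a robustly set normexp background chosen after seeing the data.

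Of the 11 MAP3Ks detected on at least 3 arrays, 2 were higher and 2 lower at this level and 7 did neither, where 8.8% of all detected targets were higher and 11.4% lower. The others that passed were MAP3K6 at 0.22 and MAP3K3 at 0.10, both kinases of stress branches, and MAP3K14, a kinase of NF-kappaB signalling, at -0.14, with adjusted p-values of 0.331, 0.552 and 0.386 in limma. MAP3K1, which feeds the JNK branch, had signals of 309, 511 and 360.3 against 429.8, 202 and 499, with Stau1 IP 2 the lowest array and control IP 2 the highest. Its labelled difference was -0.13 (SE 0.22), and it was 0.38 (SE 0.15, adjusted p = 0.35) with the exchange. MAP4K1 to MAP4K4 had log2 fold changes between -0.06 and 0.09.

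Downstream of p38, MAPKAPK2, a kinase that controls the stability of cytokine mRNAs, had signals of 241, 334 and 271 against 359.6, 319 and 400.3. The deposited signal of control IP 2 exceeded that of Stau1 IP 2, the arrays with the highest backgrounds (89.6 and 88.5), and after normalization all Stau1 values lay above all controls. The log2 fold change was 0.30 (SE 0.06, adjusted p = 0.238 in limma). It was 0.27 (adjusted p = 0.0686) without both arrays numbered 2 and 0.05 with them exchanged. MAPKAPK3 and MAPKAPK5 had log2 fold changes of 0.26 (SE 0.16) and -0.09 (SE 0.09), and their groups overlapped.

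Among the scaffolds and adaptors, MAPK8IP2 had the smallest p-value of all members. MAPK8IP2 (JIP2), a scaffold of the JNK branch, had signals of 174, 228 and 209.9 in the control IPs and of 282, 245 and 312 in the Stau1 IPs, was detected on 4 arrays and was higher on every Stau1 array. Its log2 fold change was 0.39 (SE 0.06, adjusted p = 0.209 in limma), a fold of 1.31. The sister scaffold MAPK8IP1 (JIP1) had signals of 248, 293 and 248 against 313, 362 and 332, and its Stau1 arrays also lay above its controls, with a log2 fold change of 0.30 (SE 0.15, adjusted p = 0.67). Without both arrays numbered 2, these scaffolds gave 0.33 (adjusted p = 0.122) and 0.11 (adjusted p = 0.305), and with the exchange 0.06 and -0.16.

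MAP3K7IP1, now named TAB1, activates MAP3K7. Its signals were 288, 413 and 319.8 against 434, 398 and 514, with a log2 fold change of 0.35 (SE 0.07, adjusted p = 0.237 in limma). It was therefore on the other side of 0 from MAP3K7 itself, while MAP3K7IP2, now TAB2, lay at -0.03 with a 95% interval from -0.12 to 0.05. MAP2K1IP1, now LAMTOR3, an endosomal adaptor of MAP2K1, had signals of 455, 441.5 and 323 against 306, 202 and 286. All Stau1 arrays were below all control arrays, at -0.55 (SE 0.14, adjusted p = 0.333 in limma), and the value without both arrays numbered 2 was -0.53 (adjusted p = 0.274). With the exchange these were 0.09 for MAP3K7IP1 and -0.16 for MAP2K1IP1.

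**Figure D2:**
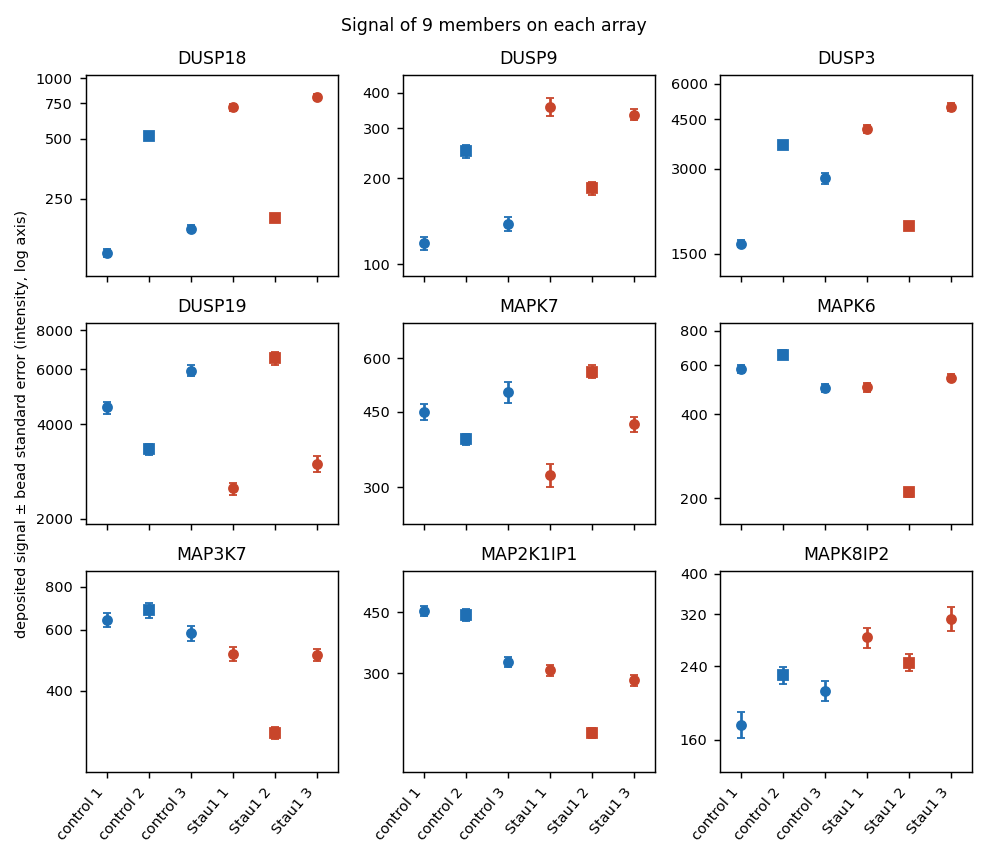
Deposited signal (intensity, log axis) of 9 members on each of the 6 arrays, blue for control IP and red for Stau1 IP, squares for the arrays numbered 2, bars the standard error between beads. For DUSP18, DUSP9 and DUSP3 control IP 2 lies nearer to Stau1 IP 1 and 3 than the other controls do and Stau1 IP 2 falls away from its group. DUSP19 and MAPK7 show the reverse, MAPK6, MAP3K7 and MAP2K1IP1 are lowest on Stau1 IP 2, and MAPK8IP2 is highest on Stau1 IP 1 and 3.

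The phosphatases held the 3 largest labelled differences, those of DUSP18, DUSP9 and DUSP28. DUSP18, a small dual-specificity phosphatase found in mitochondria, had signals of 134, 514 and 177 in control IPs 1 to 3 and of 715, 199 and 803 in Stau1 IPs 1 to 3. Control IP 2 was therefore near Stau1 IP 1 and 3, and Stau1 IP 2 near control IP 1 and 3. By the labels the groups overlapped, and the log2 fold change was 0.92 (SE 0.52, adjusted p = 0.73 in limma). Between the arrays numbered 1 and 3 alone it was 1.77 (SE 0.12, adjusted p = 0.014), and between those numbered 2 it was -0.80. With the arrays numbered 2 exchanged it was 1.45 (SE 0.21, adjusted p = 0.055 in limma), and DUSP18 became the 1 member past the fold of 2.5. With neqc the labelled and exchanged values were 0.30 and 0.44 (adjusted p = 0.187 for the latter), short of that fold, and with the robust normexp background they were 1.42 and 2.17.

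DUSP19, which binds and inactivates kinases of the JNK branch, ran the other way. Its signals were 4533, 3327 and 5944 in the control IPs and 2498, 6502 and 2998 in the Stau1 IPs, so Stau1 IP 2 was the highest array of all. By the labels its log2 fold change was -0.32 (SE 0.43, adjusted p = 0.917 in limma) with overlapping groups. It was -1.002 (SE 0.14, adjusted p = 0.0441) without both arrays numbered 2, and -1.01 (SE 0.14, adjusted p = 0.0487) with them exchanged, then the 1 member with an adjusted p under 0.05.

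DUSP3 (VHR), a phosphatase of ERK and JNK kinases, had signals of 1629, 3658 and 2777 against 4155, 1875 and 4986. Its labelled log2 fold change was 0.39 (SE 0.40, adjusted p = 0.877 in limma), against 0.96 (adjusted p = 0.147) without both arrays numbered 2 and 0.89 (adjusted p = 0.132) with the exchange. Control IP 2 was again above the other controls, and Stau1 IP 2 fell below control IP 3.

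Of the classical MAP kinase phosphatases, DUSP9, which acts mainly on ERK kinases, had signals of 118, 249 and 138.5 against 357, 184 and 336. The labelled groups overlapped through control IP 2 and Stau1 IP 2, and the log2 fold change was 0.66 (SE 0.22, adjusted p = 0.464 in limma). It was 1.01 (SE 0.09, adjusted p = 0.0206) without both arrays numbered 2 and 0.68 (adjusted p = 0.224) with the exchange, and the labelled value was 0.12 with neqc and 1.27 with the robust normexp background. DUSP8, a phosphatase of JNK and p38 kinases, had signals of 225, 630.2 and 345 against 469, 419.9 and 703 and a log2 fold change of 0.42 (SE 0.27, adjusted p = 0.762), or 0.49 (adjusted p = 0.471) with the exchange. DUSP1, an immediate early phosphatase, had 1102, 1182 and 1616 against 1525, 827 and 1474, and lay at -0.07 (SE 0.22). DUSP2, DUSP5, DUSP10 and DUSP16 had log2 fold changes of 0.26, 0.02, -0.06 and 0.12.

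DUSP28, an atypical DUSP, had signals of 303, 476 and 509 against 954, 412 and 839.6. Stau1 IP 1 and 3 were the highest arrays and Stau1 IP 2 lay below control IP 2 and 3 in deposited signal, for a log2 fold change of 0.64 (SE 0.24, adjusted p = 0.529 in limma), or 0.48 (SE 0.30, adjusted p = 0.595) with the exchange. DUSP22, a regulator of JNK signalling, had an unadjusted p under 0.05 at -0.12 (SE 0.05, adjusted p = 0.534). The other DUSPs DUSP11, DUSP12, DUSP14, DUSP23, DUSP26 and DUSP27 had log2 fold changes between -0.14 and 0.06. DUSP7 was undetected on the 3 control arrays and detected on 2 Stau1 arrays. Each control was therefore set at the lowest detected signal of its array or at its own value, whichever was higher. This gave a fold of 1.15, which takes no account of the spread between arrays. The labelled groups overlapped, with a log2 fold change of 0.24 (SE 0.11, adjusted p = 0.614 in limma). In deposited signal, control IP 2 (112) exceeded Stau1 IP 1 and 2 (109 and 106). MAP2K3 and MAP3K7IP3, detected on the same numbers of arrays, gave folds of 0.952 and 1.01 under this rule.

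**Figure D3:**
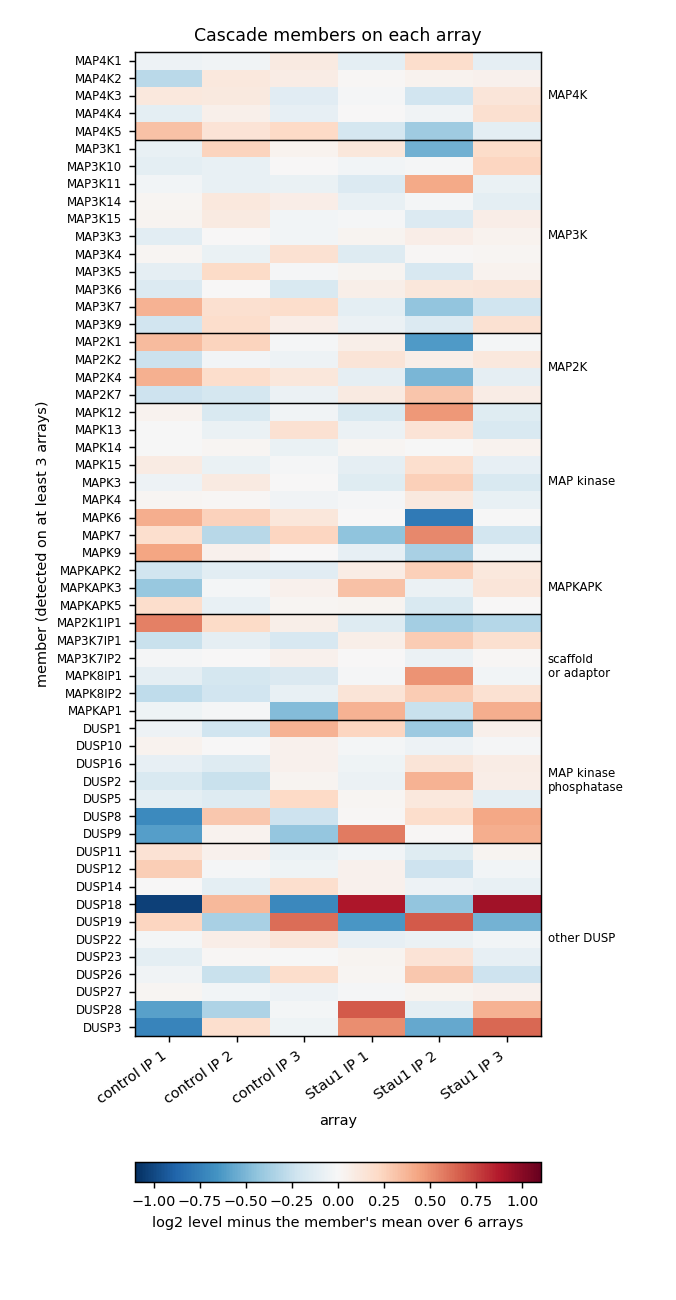
Normalized log2 level of 56 of the 57 members detected on at least 3 arrays (rows, grouped by place in the cascade) on each of the 6 arrays (columns), as the difference from that member's mean over the arrays. Red is above and blue below the mean; DUSP18, DUSP3, DUSP19 and DUSP28 show the widest ranges among them, and the columns of Stau1 IP 1 and Stau1 IP 3 resemble each other most.

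The position of the arrays numbered 2 was also seen among the members, and it was not particular to the cascade. Control IP 2, Stau1 IP 1 and Stau1 IP 3 all lay above the other 3 arrays in 8 of the 57 members: DUSP18, DUSP3, DUSP9, MAP3K1, MAP3K5, MAP4K4, MAPK14 and MAPKAP1. They all lay below them in 6: DUSP19, MAPK7, MAPK12, MAPK13, MAPK15 and MAP3K11. Among all targets detected on at least 3 arrays the shares were 17.7% and 15.7%. Stau1 IP 2 was the lowest array for 17 of the 57 members (27% of all such targets) and the highest for 18 (27.9%). In the arrays numbered 1 and 3, 9 members differed between Stau1 IP and control IP by more than 0.5 on the log2 scale. For 7 of these 9, DUSP18, DUSP9, DUSP3, DUSP8, MAPKAP1, DUSP19 and MAPK7, the arrays numbered 2 differed in the opposite direction, as they did for 66.6% of the 2744 such targets of the array. DUSP9 and DUSP8 were near 0 there, at -0.02 and -0.11, and DUSP28 and MAP2K1IP1 kept their direction. Over differences of any size, 28 of the 57 members were opposite (49.1%), against 57.1% of all such targets.

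**Figure D4:**
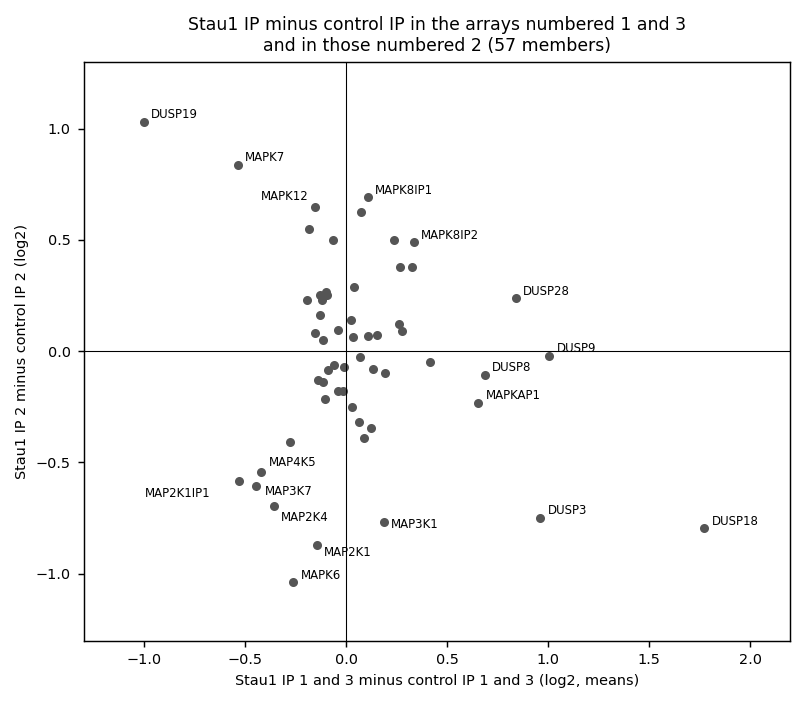
Difference between Stau1 IP and control IP (log2) in the arrays numbered 1 and 3 (x axis, difference of means) and in the arrays numbered 2 (y axis, 1 array each) for the 57 members detected on at least 3 arrays; the axes share no array. DUSP18, DUSP3, DUSP19 and MAPK7 lie far out with opposite signs on both axes, while MAP4K5, MAP3K7, MAP2K4 and MAP2K1IP1 are below 0 on both and MAPK8IP2 is above 0 on both.

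With the arrays numbered 2 exchanged, 1 of the 77 members was enriched at a fold above 2.5, DUSP18 (0.388% of all targets), and 0 were depleted (0.0185%). DUSP19 was the 1 member with an adjusted p under 0.05 (0.9% of all targets). At an unadjusted p under 0.05, 7 of the 57 detected members were higher, against 17.4% of all such targets, namely DUSP18, DUSP9, DUSP3, MAPKAP1, MAP3K1, MAP3K5 and MAP4K4. There were 6 lower members, against 15.3%, among them DUSP19, MAPK7, MAPK13, MAPK15 and DUSP26. MAPKAP1 had signals of 399.6, 521 and 296 against 655, 306 and 725. It moved from 0.36 (SE 0.22) by the labels to 0.51 (SE 0.16, adjusted p = 0.225) with the exchange.

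Without both arrays numbered 2, which leaves 2 arrays a group, 5 members had an adjusted p under 0.05 in limma, against 5.55% of all targets. They were DUSP18 and DUSP9, which were higher, and MAP4K5, DUSP19 and MAP2K3, which were lower. MAP2K3 had a log2 fold change of -0.29 (SE 0.04, adjusted p = 0.0483), and deposited signals of 202.8 and 220.9 in control IP 1 and 3 against 182 and 203.9 in Stau1 IP 1 and 3. DUSP18 was again the 1 member enriched above a fold of 2.5 (0.602%). Of the 57 detected members, 13 were higher at an unadjusted p under 0.05 (22.4%) and 9 were lower (22.2%). These members were named after their values had been seen.

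The genes around the cascade were taken from fixed lists of other upstream and downstream genes. Of 36 upstream genes (RAS and RAF proteins, adaptors, SPRY and SPRED inhibitors, small GTPases, TAO kinases, GADD45 proteins), 27 were detected on at least 3 arrays and none was enriched, depleted or past an adjusted p of 0.05 by the labels. At an unadjusted p under 0.05, 2 were higher and 3 lower, where 8.8% and 11.4% of all detected targets were. TAOK2, a kinase of the MAP3K level, had signals of 203.0, 298 and 264 against 328, 315 and 407 and a log2 fold change of 0.40 (SE 0.10, adjusted p = 0.325 in limma). SPRY2, an inhibitor of RAS signalling induced by ERK activity, lay at -0.22 (SE 0.06, adjusted p = 0.362), with Stau1 IP 2 lowest at 419.8. SPRED1, another RAS inhibitor, lay at -0.20 (SE 0.05, adjusted p = 0.374). With the arrays numbered 2 exchanged, TAOK2 was at 0.06, SPRY2 turned to 0.04 and SPRED1 was at -0.03.

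Of 38 downstream genes (RSK and MNK kinases, ELK, JUN, FOS, ETS and MEF2 factors, MYC and others), 31 were detected, 0 were enriched or depleted, and 0 had an unadjusted p under 0.05 among those detected. JUND, a subunit of the AP-1 factor and a substrate of JNK kinases, had the smallest p. Its signals were 6423, 10605 and 8941 against 15117, 9344 and 17913, and its log2 fold change was 0.73 (SE 0.31, adjusted p = 0.597 in limma). The high arrays were Stau1 IP 1 and 3, and Stau1 IP 2 lay among the controls. ETS2 and MKNK1 followed at 0.10 (SE 0.05) and 0.13 (SE 0.06). With the arrays numbered 2 exchanged, 0 genes of either list had an adjusted p under 0.05. Without both of those arrays, SPRED2, PAK1, HSPB1 and DDIT3 were lower and NRAS was higher at an adjusted p under 0.05 in limma. Of all targets, 5.55% passed that level there.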

How the data were processed

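RNA from 3 control IPs and 3 Stau1 IPs was hybridized on Illumina HumanWG-6 BeadChips. The authors deposited, per the file headers, the signal intensity of each target without background subtraction or normalization, its bead standard error (also an intensity), its bead number and a detection p-value. Values of total RNA were not used here. On each array, 200 targets with detection p-values closest to 0.5 stood in for the negative controls, and their median was subtracted. A variance-stabilizing transformation was fitted to the bead SD (500 bins) and each array was mapped on control IP 2 by a monotone spline with 10 knots, after the study's methods, whose software was rebuilt in R 4.3.3 with mgcv 1.9.3. Groups came from the labels, and limma 3.58.1 tested them with the Benjamini-Hochberg adjustment. The steps were tested on simulated data with 200 targets changed 4-fold. By the rule with a fold above 2.5, 70.5% of these were recovered, with 0 false calls. At an adjusted p under 0.05, 84.5% were recovered, with 9 false calls. The simulation made no array depart from its group, as the arrays numbered 2 do here. Members and gene lists were chosen with earlier results of these data known. Named were the 5 detected members with the smallest p, the 5 highest and 5 lowest fold changes, the 6 widest ranges, the MAPK, MAP2K and MAPKAPK genes (1 of which is not reported here), and 3 genes of each pathway list. Other members and pathway genes were named after their values were seen. Of 77 symbols, 75 matched RefSeq's gene table, 5 under another current symbol. Array number limits precision. Alternatives were neqc, other normalizations, a replicate block, the methods' t-test, a 2-fold threshold and leaving out or exchanging arrays. Normexp with a robust background was added after seeing the data. Deviations of same-numbered arrays from their labelled group means correlated at r = -0.45, -0.77 and -0.38. Where the arrays numbered 2 differ from their groups in opposite directions, such deviations oppose each other by construction. Whether the numbers pair the samples therefore cannot be told from them.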

Additional observations from a re-analysis of the deposited data

How the results depend on the processing

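By the labels 0 members were enriched, 0 depleted and 0 past an adjusted p of 0.05, and the counts over the whole array were 1 and 0. Without both arrays numbered 2, 228 targets were enriched and 15 depleted, 1 member was enriched and 5 members passed the adjusted p. With those arrays exchanged the numbers were 147 and 7 targets, 1 enriched member and 1 with an adjusted p. Leaving out 1 array gave 0 to 103 enriched targets and 0 to 8 depleted, with the highest of each without Stau1 IP 2, and 0 to 1 enriched member, the 1 without control IP 2 or without Stau1 IP 2. With neqc, 3 targets were enriched and 6 depleted, and 149 and 28 with the exchange, which then gave 1 depleted member and 1 pathway gene past the threshold. With normexp on a robust background, chosen after seeing the data, the counts were 11 and 19, and with the exchange 346 and 33, 1 enriched member and 1 with an adjusted p. neqc took the background SD as 460 to 608, against 9.97 to 10.9 by the robust estimate, and 231 to 295 undetected targets per array had signals above 300. A 2-fold threshold gave 9 and 11 targets. With the replicate number as a block, 0 targets were enriched, and 5 rather than 10 members were higher at an unadjusted p under 0.05. Over all alternatives 2 to 14 members were higher and 3 to 11 lower at that level, with 2 and 3 under median centring. The methods' t-test gave 6 higher members, and it called 1 target enriched, 0 depleted and 0 members after the adjustment. The share of all targets at the unadjusted level is not given for each alternative. These member counts therefore do not show whether the members differed from the array as a whole. The fold change of MAPK6 reversed with the exchange, to 0.17, to 0.020 with neqc and to 0.23 with the robust normexp. Of 266 alternative values of the 14 named members, 3 reversed and 6 (of MAP4K5, DUSP18, DUSP9 and DUSP19) passed the adjusted threshold. By the labels no named member passed it, so staying short of it shows nothing about stability, and sizes varied widely: MAPK8IP2 ranged from 0.0066 to 0.65 and MAPKAPK2 from 0.0084 to 0.45. The cause of these changes was not tested.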

Other observations

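By the labels, the medians of all targets detected on at least 3 arrays differed between chromosomes, as the table names them. The median log2 fold change was 0.09 for the 801 targets of chromosome 19, the 324 of chromosome 22 and the 579 of chromosome 16, and it was -0.11 for the 217 of chromosome 13 and -0.07 for the 413 of chromosome 4. With the arrays numbered 2 exchanged, the medians of all chromosomes lay between -0.05 and 0.01. The detected members MAPK8IP2, MAP3K7IP1, MAPK12 and DUSP18, listed on chromosome 22, had a labelled log2 fold change above 0. So had 3 of the 4 on chromosome 19 (MAP2K2, MAP2K7 and MAP3K10, not MAP4K1), and MAP2K1IP1, listed on chromosome 4, lay below 0. Members on other chromosomes did not all lie on the side of the median. On chromosome 17, with a median of 0.06, DUSP3 and MAP3K3 lay above 0 and DUSP14, MAP2K4, MAP3K14 and MAPK7 below. What part the chromosome had in these values was not tested.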
